A study of Mus musculus with 13 samples.

Results

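Ligands of the epidermal growth factor (EGF) family, the ErbB receptors that bind them and one inhibitor of those receptors were followed across rectal adenocarcinoma, inflamed rectal mucosa and normal rectal mucosa of the mouse. The genes were taken from a list of 10, of which 9 were measured here, among 19938 genes on the array. The ligands were Ereg, Hbegf, Epgn, Tgfa and Nrg1, the receptors Egfr, Erbb2 and Erbb3, and the inhibitor Errfi1. Areg, which encodes the ligand amphiregulin, had no probe set in the annotation used and was not analysed here. Each measured gene was read by 1 transcript cluster, the set of probes that the array assigns to a gene.

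RNA of 13 tissue samples was measured on Affymetrix Mouse Gene 1.0 ST arrays, 1 array per sample. The 5 adenocarcinomas and 4 flanking inflamed mucosae came from rectal prolapses of α6fl/fl Villin-Cre mice, in which the Villin promoter drives Cre recombinase in intestinal epithelium and removes the floxed gene of the integrin α6 subunit there but not in other cell types. The 4 normal mucosae came from control mice, although a genotype label repeats α6fl/fl Villin-Cre for all 13 samples. Adenocarcinomas 1, 2, 3, 4 and 6 came from mice aged 53, 60, 60, 64 and 80 weeks, inflamed mucosae 1, 2, 3 and 4 from mice of 53, 60, 60 and 64 weeks, and normal mucosae 1, 2, 4 and 6 from mice of 53, 60, 64 and 70 weeks. Numbers 1 and 6 were female in every group that has them, and the other numbers were male. Prolapse tissue was dissected from frozen sections whereas normal mucosa was scraped from the rectum, so in any comparison with normal mucosa the disease and the way of collection cannot be told apart.

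EGF family ligands are made as membrane-anchored precursors and are released by proteases. They bind ErbB receptor tyrosine kinases, which pair up and signal through the Ras-ERK and PI3K-Akt cascades. Epiregulin, HB-EGF, epigen and TGFα bind Egfr, some of them also Erbb4, and neuregulin 1 binds Erbb3 and Erbb4. Erbb2 has no known ligand and acts as a partner of the other receptors, and Erbb3 has little kinase activity of its own. In intestine the pathway is known for its part in crypt cell proliferation and in the repair of damaged mucosa.

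The median log2 value per array ran from 6.41 to 6.59, and arrays correlated with each other at 0.943 to 0.99 over all clusters. Transcripts of the Y chromosome on female arrays and Xist on male arrays, which gauge the value of an absent transcript, reached 5.57 at most. In bulk tissue, fewer cells of a type and less RNA per cell cannot be told apart. The mean of 8 general epithelial markers lay at 12.07 to 12.14 in adenocarcinomas, 11.83 to 11.98 in inflamed mucosa and 12.14 to 12.29 in normal mucosa, so epithelial transcripts were abundant on all 13 arrays. The mean of 8 fibroblast markers lay at 9.31 to 9.83 in adenocarcinomas and 9.33 to 9.85 in inflamed mucosa, against 6.74 to 8.04 in normal mucosa. Smooth muscle markers were highest in inflamed mucosa, at 10.47 to 11.45, against 8.69 to 8.99 in adenocarcinomas and 6.33 to 8.08 in normal mucosa. Normal mucosa 1 stood apart with a squamous epithelium mean of 9.98, where the other normal arrays had 5.85 to 6.12 and adenocarcinomas 6.52 to 8.8. Its macrophage, neutrophil and T cell means, 8.14, 6.89 and 7.57, were also the highest of the normal arrays. Normal mucosa 6 had the highest fibroblast and smooth muscle means of its group, 8.04 and 8.08.

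**Figure D1:**
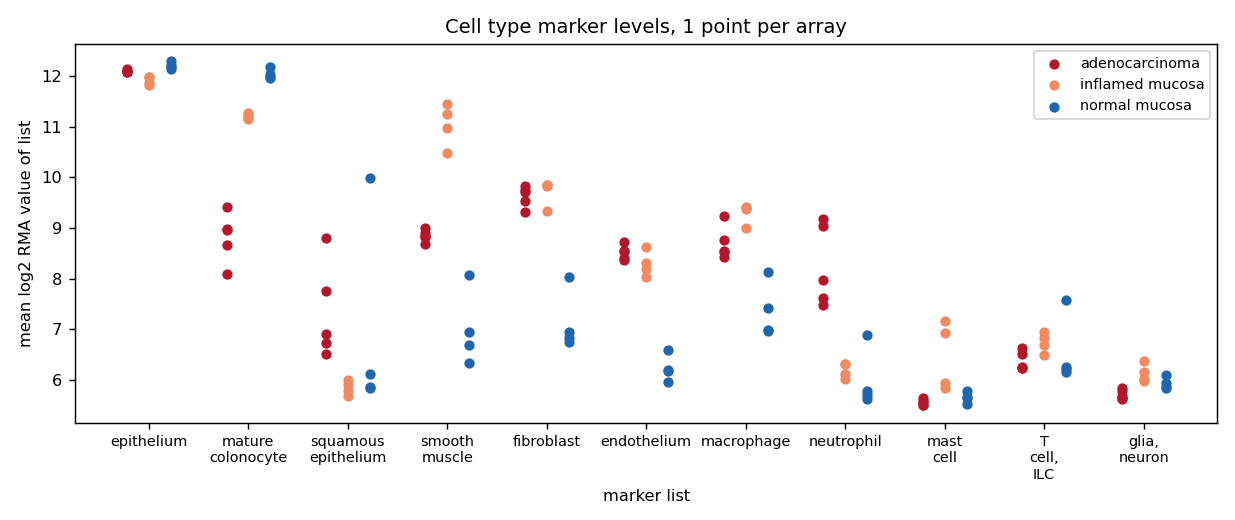
Mean log2 value of each marker list on the vertical axis, by marker list on the horizontal axis, with 1 point per array and colours for adenocarcinoma, inflamed mucosa and normal mucosa. Fibroblast means of the 4 normal arrays, 6.74 to 8.04, lie below those of all other arrays, and 1 normal array reaches 9.98 for squamous epithelium.

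In adenocarcinoma against normal mucosa, 5 of the 9 genes changed, where 35.8% of all 19938 genes passed the same test. The ligands Ereg and Nrg1 and the receptor Egfr were higher in the tumours, among 16.4% of all genes called higher. The receptors Erbb2 and Erbb3 were lower, among 19.4% of all genes called lower. Values of these 5 genes did not overlap between the groups, which held for 26.9% of all genes. Hbegf, Tgfa, Epgn and Errfi1 did not pass the test, and the median log2 difference of the 9 genes was 0.11, against -0.10 over all genes. A gene was called when its Benjamini-Hochberg adjusted p from limma, adjusted over all genes, was below 0.05.

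Inflamed mucosa against normal mucosa gave 6 called genes, where 26.7% of all genes were called. Ereg and Nrg1 were higher (13.7% of all genes were called higher), and Hbegf, Tgfa, Erbb2 and Erbb3 were lower (13% of all genes). The median log2 difference of the 9 genes was -0.24, against -0.09 over all genes. Values of 5 of the 9 genes did not overlap between the groups, as for 27.6% of all genes. These first 2 comparisons share the 4 normal arrays.

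Adenocarcinoma against inflamed mucosa gave 1 called gene, Hbegf, which was higher in the tumours, where 7.12% of all genes were called, 2.91% higher and 4.21% lower. Values of Hbegf and Egfr did not overlap between the groups, as for 11.8% of all genes. The 4 tumours and 4 inflamed samples of 1 number have the same sex and age in the labels. The call of Hbegf above comes from a fit without pairs, and pairing by number was used in alternatives to it. With the number as a random block, 4 of the 9 genes were called, all higher in adenocarcinoma, which added Ereg, Nrg1 and Egfr. Calls over all 19938 genes rose as well under that block, from 1420 to 2279. The 7.12% above therefore belongs to the fit without pairs only. The same 4 genes were called in the 4 complete pairs alone, and a fixed block over all arrays, which also joins the unpaired normal arrays, called Hbegf and Ereg. The median log2 difference of the 9 genes was 0.26, against -0.01 over all genes.

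**Figure D2:**
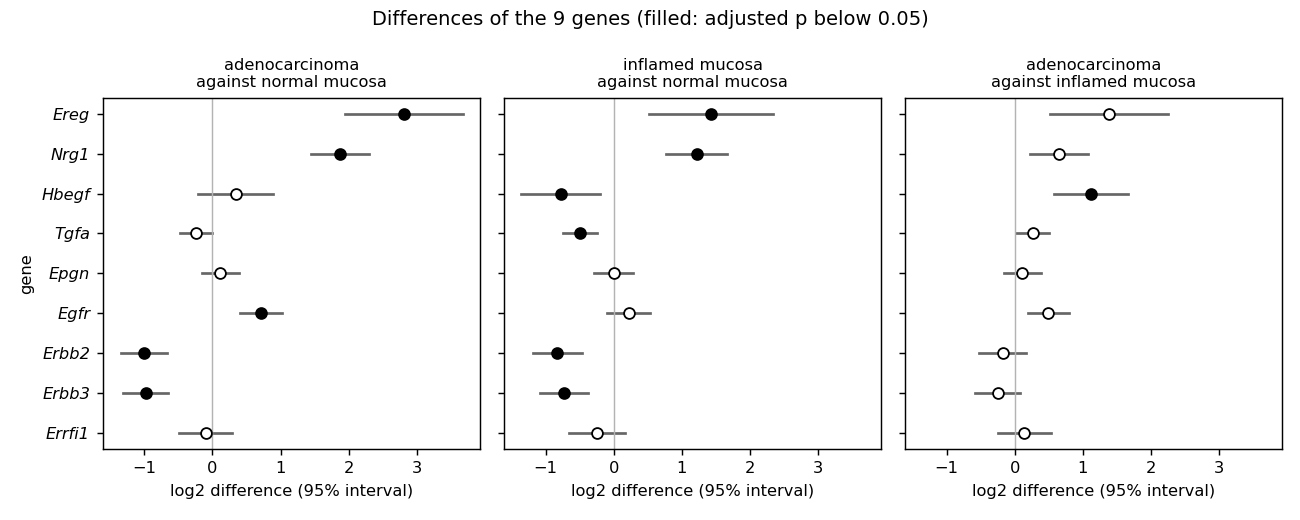
Log2 difference on the horizontal axis for each of the 9 genes on the vertical axis, in 3 panels for the 3 comparisons, with 95% intervals as lines and filled points where the adjusted p is below 0.05. Ereg has the widest intervals and Erbb2 and Erbb3 lie below 0 in both comparisons with normal mucosa.

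Ereg encodes epiregulin, a ligand of Egfr and Erbb4. Its log2 value was 8.22, 9.01, 7.0, 7.77 and 9.29 in adenocarcinomas 1, 2, 3, 4 and 6, 7.17, 7.55, 6.03 and 6.75 in inflamed mucosae 1 to 4, and 5.38, 5.36, 5.32 and 5.72 in normal mucosae 1, 2, 4 and 6. Adenocarcinomas ranked first, inflamed mucosa second and normal mucosa last by the mean, and only the first 2 groups overlapped. In normal mucosa 3 of the 4 arrays lay at or below the 5.57 of transcripts absent by sex, so a fold change against that group is the ratio of the measured values and not a ratio of transcript amounts.

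Ereg averaged 8.26 ± 0.93 in adenocarcinoma (SD, n = 5) and 5.44 ± 0.19 in normal mucosa (SD, n = 4), a log2 difference of 2.82 ± 0.40 (SE) or 7.04-fold as measured (adjusted p = 0.000135). Inflamed mucosa averaged 6.87 ± 0.65 (SD, n = 4) and was 2.7-fold above normal mucosa as measured (adjusted p = 0.0242). That second call was lost without inflamed mucosa 1 (1.33, adjusted p = 0.0583), inflamed mucosa 2 (1.21, adjusted p = 0.0786) or normal mucosa 2 (1.40, adjusted p = 0.0604). Against inflamed mucosa, Ereg in adenocarcinoma differed by 1.38 ± 0.40 and missed the threshold (adjusted p = 0.0538). With the replicate number as a random block the log2 difference was 1.31 (adjusted p = 0.0155), and in the 4 complete pairs it was 1.13 (adjusted p = 0.00136). Within the pairs, the tumour exceeded its inflamed mucosa by 1.05, 1.47, 0.97 and 1.02 on the log2 scale for numbers 1 to 4.

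Ereg was read beside inflammatory cell markers. The neutrophil mean lay at 7.47 to 9.17 in adenocarcinomas, 6.02 to 6.32 in inflamed mucosa and 5.62 to 6.89 in normal mucosa, with 8 of 8 neutrophil markers called higher in adenocarcinoma and 1 of 8 in inflamed mucosa, both against normal mucosa. The macrophage mean lay at 8.43 to 9.24 in adenocarcinomas, 9.0 to 9.41 in inflamed mucosa and 6.96 to 8.14 in normal mucosa. Their part in the Ereg values was not tested.

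Nrg1 encodes neuregulin 1, a ligand of Erbb3 and Erbb4. On the log2 scale it had 8.29, 8.66, 8.19, 8.63 and 8.73 in adenocarcinomas 1, 2, 3, 4 and 6, 8.24, 7.64, 7.52 and 7.99 in inflamed mucosae 1 to 4, and 7.19, 6.5, 6.17 and 6.65 in normal mucosae 1, 2, 4 and 6. Adenocarcinomas were highest, and their range met that of inflamed mucosa only through inflamed mucosa 1. Every normal value was lower than every other value.

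Nrg1 was 3.66-fold higher in adenocarcinoma than in normal mucosa, a log2 difference of 1.87 ± 0.20 (SE) and the smallest adjusted p among the 9 genes (1.07e-05). In inflamed mucosa it was 2.33-fold higher than in normal mucosa (log2 difference 1.22 ± 0.21, adjusted p = 0.0009). Adenocarcinoma and inflamed mucosa differed by 0.65 ± 0.20, which missed the threshold (adjusted p = 0.0662) and passed it with the random block (0.63, adjusted p = 0.0288) and in the 4 pairs (0.59, adjusted p = 0.0468). The pair of number 1 differed by 0.05, and the pairs of numbers 2, 3 and 4 by 1.01, 0.67 and 0.64.

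Marker lists of stromal cells were measured beside Nrg1. All 8 fibroblast and all 8 endothelium markers were called higher in adenocarcinoma than in normal mucosa, and likewise in inflamed mucosa against normal mucosa. The endothelium mean lay at 8.37 to 8.72 in adenocarcinomas, 8.04 to 8.63 in inflamed mucosa and 5.97 to 6.6 in normal mucosa. Between adenocarcinoma and inflamed mucosa, 3 of 8 fibroblast markers were higher and 1 lower, with list means of 9.63 and 9.71 and a median log2 difference of 0.28, so mean and median differed in sign, and 7 of 8 smooth muscle markers were lower, with a median log2 difference of -2.17. The part of these cells in the Nrg1 values was not tested. Without normal mucosa 1, which was the highest normal array for Nrg1, the log2 difference between adenocarcinoma and normal mucosa was 2.06 (adjusted p = 2.94e-06). The 3 named genes whose values followed Nrg1 most closely over the 13 arrays were Tmsb10, with a Pearson r of 0.972, Tgfb1 with 0.968 and Bmp7 with 0.966. The arrays share 3 tissue groups, so these correlations describe the group pattern.

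Hbegf encodes HB-EGF, a ligand of Egfr and Erbb4. The log2 values of Hbegf were 9.54, 9.4, 8.8, 9.33 and 9.88 in adenocarcinomas 1, 2, 3, 4 and 6, 8.57, 8.48, 7.43 and 8.6 in inflamed mucosae 1 to 4, and 9.26, 8.69, 9.41 and 8.84 in normal mucosae 1, 2, 4 and 6. Inflamed mucosa was the lowest group and overlapped with neither of the others, while adenocarcinomas and normal mucosa overlapped. Inflamed mucosa 3 was the lowest of all arrays, and adenocarcinoma 3, of the same number, was the lowest tumour.

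Hbegf was 2.17-fold higher in adenocarcinoma than in inflamed mucosa, a log2 difference of 1.12 ± 0.26 (SE; adjusted p = 0.0176), and higher in the tumour in 4 of 4 pairs, by 0.97, 0.92, 1.37 and 0.73. This call was kept under all 28 alternatives, with adjusted p between 0.00285 and 0.0461. Inflamed mucosa lay 1.72-fold below normal mucosa (log2 difference -0.78 ± 0.27, adjusted p = 0.0477), a call lost under 18 of 27 alternatives. Without inflamed mucosa 3 that difference was -0.50 (adjusted p = 0.112). Adenocarcinoma differed from normal mucosa by 0.34, with a 95% interval of -0.21 to 0.89 (adjusted p = 0.305).

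Tgfa encodes TGFα, a ligand of Egfr. Its log2 value was 8.53, 8.55, 8.39, 8.46 and 8.62 in adenocarcinomas 1, 2, 3, 4 and 6, 8.53, 8.13, 8.18 and 8.17 in inflamed mucosae 1 to 4, and 8.9, 8.96, 8.53 and 8.6 in normal mucosae 1, 2, 4 and 6. Inflamed mucosa was lowest by the mean, and its array 1 reached the lowest normal value. Tgfa was 1.41-fold lower in inflamed than in normal mucosa (log2 difference -0.50 ± 0.12, adjusted p = 0.00758). Adenocarcinoma differed from normal mucosa by -0.24 (95% interval -0.48 to 0.00, adjusted p = 0.108) and from inflamed mucosa by 0.26 (0.02 to 0.50, adjusted p = 0.209).

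Epgn encodes epigen, another ligand of Egfr. Its log2 values were low throughout, at 5.73 to 5.96 in adenocarcinomas, 5.48 to 6.01 in inflamed mucosa and 5.41 to 6.0 in normal mucosa. The lowest inflamed array and the lowest normal array lay below the 5.57 of transcripts absent by sex. All groups overlapped, and the 95% interval of the log2 difference between adenocarcinoma and normal mucosa was -0.16 to 0.39.

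**Figure D3:**
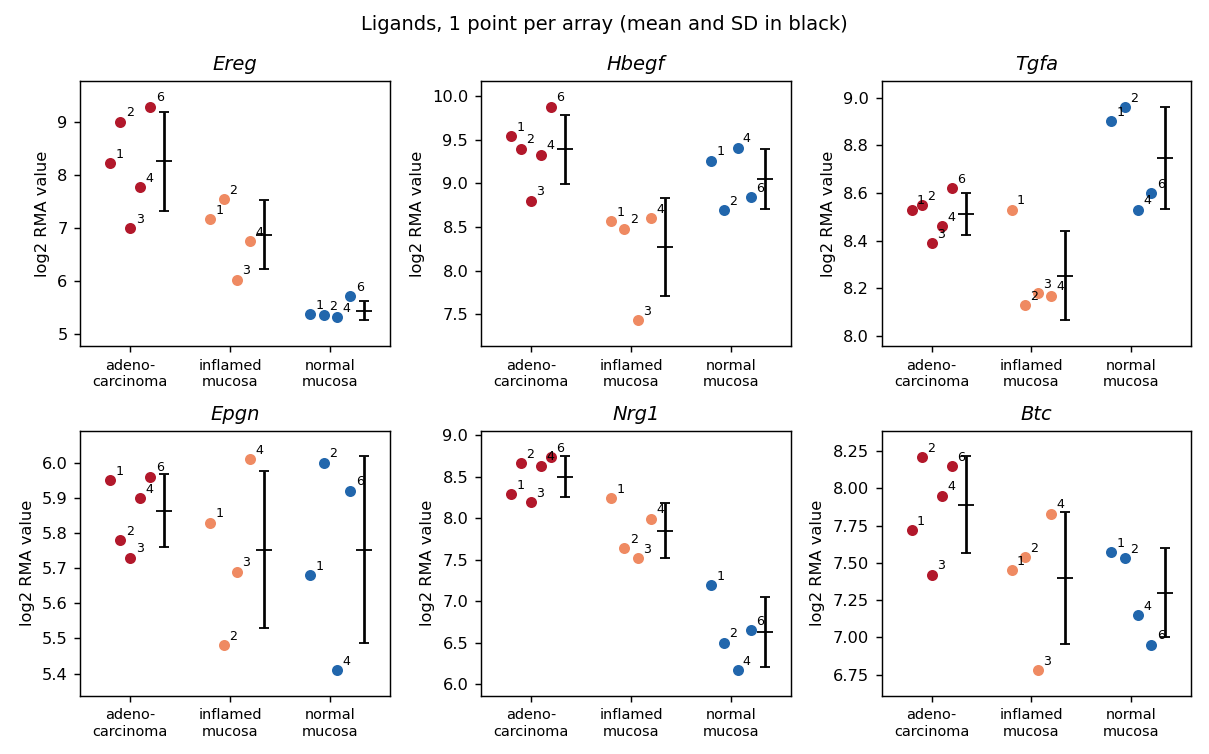
Log2 RMA value on the vertical axis for the 5 measured ligands and for Btc, with 1 numbered point per array and the group's mean and SD in black, for adenocarcinoma, inflamed mucosa and normal mucosa from left to right on the horizontal axis. Ereg and Nrg1 are lowest in normal mucosa, and Hbegf is lowest in inflamed mucosa, where array 3 lies at 7.43. Vertical scales differ between panels.

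Egfr encodes the receptor that binds most of these ligands. The log2 values of Egfr were 10.08, 9.97, 9.96, 10.1 and 10.43 in adenocarcinomas 1, 2, 3, 4 and 6, 9.64, 9.52, 9.65 and 9.65 in inflamed mucosae 1 to 4, and 9.8, 9.54, 9.17 and 9.06 in normal mucosae 1, 2, 4 and 6. Every tumour lay above every other array, and inflamed and normal mucosa overlapped.

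Egfr averaged 10.11 ± 0.19 in adenocarcinoma (SD, n = 5) and 9.39 ± 0.34 in normal mucosa (SD, n = 4), a log2 difference of 0.71 ± 0.14 (SE) or 1.64-fold (adjusted p = 0.00162). Against inflamed mucosa, which averaged 9.61 ± 0.06 (SD, n = 4), the difference was 0.49 ± 0.14 and missed the threshold (adjusted p = 0.0508). It passed with the random block (0.47, adjusted p = 0.0214) and in the 4 pairs (0.41, adjusted p = 0.0168), with pair differences of 0.44, 0.45, 0.31 and 0.45. Inflamed mucosa differed from normal mucosa by 0.22, with a 95% interval of -0.10 to 0.54 (adjusted p = 0.269).

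Normal mucosa 1, the normal array with the highest squamous, macrophage, neutrophil and T cell means, had the highest Egfr value of its group. Without it the log2 difference between adenocarcinoma and normal mucosa was 0.85 (adjusted p = 0.000251). Adenocarcinomas 2 and 3 had the highest squamous means of the tumours, 8.8 and 7.75, and the lowest Egfr values of the tumours. The part of squamous epithelium or of immune cells in the Egfr values was not tested.

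Erbb2 encodes the partner receptor that has no known ligand. Its log2 value was 9.94, 9.83, 10.23, 9.76 and 9.77 in adenocarcinomas 1, 2, 3, 4 and 6, 9.91, 10, 10.67 and 9.75 in inflamed mucosae 1 to 4, and 10.9, 10.98, 10.9 and 10.86 in normal mucosae 1, 2, 4 and 6. Normal mucosa was highest, with no value of the other groups within its range, and adenocarcinomas and inflamed mucosa overlapped. Number 3 was the highest of both of these groups. Erbb2 was 2.01-fold lower in adenocarcinoma than in normal mucosa (log2 difference -1.0 ± 0.16, adjusted p = 0.000286) and 1.77-fold lower in inflamed than in normal mucosa (-0.83 ± 0.17, adjusted p = 0.00276). Between adenocarcinoma and inflamed mucosa the difference was -0.18, with a 95% interval of -0.52 to 0.16.

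Erbb3 encodes the receptor of neuregulins with little kinase activity. On the log2 scale Erbb3 had 10.76, 10.72, 11.18, 10.66 and 10.77 in adenocarcinomas 1, 2, 3, 4 and 6, 10.94, 11.11, 11.52 and 10.72 in inflamed mucosae 1 to 4, and 12.0, 11.93, 11.66 and 11.62 in normal mucosae 1, 2, 4 and 6. The order was that of Erbb2, with normal mucosa highest and apart, and number 3 highest in both other groups. Erbb3 was 1.98-fold lower in adenocarcinoma than in normal mucosa (log2 difference -0.98 ± 0.15, adjusted p = 0.000292) and 1.66-fold lower in inflamed than in normal mucosa (-0.73 ± 0.16, adjusted p = 0.00542). Adenocarcinoma differed from inflamed mucosa by -0.25 (95% interval -0.59 to 0.08), and the tumour was lower in 4 of 4 pairs. With predicted genes left out, Erbb3 was also the gene whose values followed Erbb2 most closely over the 13 arrays. Its Pearson r was 0.973, ahead of Zfyve1 and Slc6a8, both with 0.965. As for Nrg1, these correlations describe the pattern of the 3 tissue groups.

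Epithelial content was measured beside the receptors. Of the 8 general epithelial markers, 1 was called higher and 2 lower in adenocarcinoma than in normal mucosa, and 4 were called lower in inflamed than in normal mucosa, with median log2 differences of -0.08 and -0.28. All 8 markers of mature colonocytes were lower in adenocarcinoma than in normal mucosa, with a median log2 difference of -4.03, and 4 of 8 were lower in inflamed mucosa, with a median of -1.05. As an alternative chosen after seeing the data, the mean of the epithelial markers was subtracted on each array. Within a comparison this moves the difference of every gene by the same amount. In adenocarcinoma against normal mucosa the median over all genes moved from -0.1 to 0, a small shift beside the 5 called differences. All 5 calls were kept, which therefore says little about epithelial content. In inflamed against normal mucosa the same subtraction moved the median over all genes from -0.09 to 0.2. Under this shift, shared by all genes, Erbb2 kept its call (-0.54, adjusted p = 0.0301) and Egfr gained one (0.51, adjusted p = 0.0119). Erbb3 (-0.44, adjusted p = 0.0623), Tgfa (-0.21, adjusted p = 0.144) and Hbegf (-0.49, adjusted p = 0.17) lost their calls. The part of colonocyte maturity in the receptor values was not tested.

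**Figure D4:**
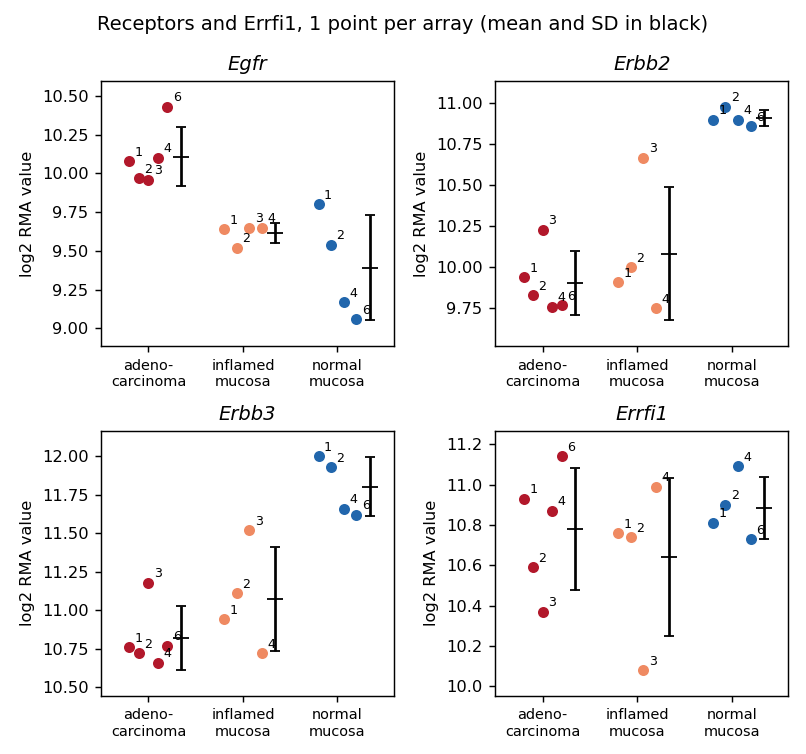
Log2 RMA value on the vertical axis for the 3 receptors and Errfi1, with 1 numbered point per array and the group's mean and SD in black, for adenocarcinoma, inflamed mucosa and normal mucosa from left to right on the horizontal axis. Egfr is highest in the 5 tumours, while Erbb2 and Erbb3 are highest in the 4 normal mucosae. Vertical scales differ between panels.

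Errfi1 encodes Mig6, a feedback inhibitor that binds ErbB kinases. Its log2 value lay at 10.37 to 11.14 in adenocarcinomas, 10.08 to 10.99 in inflamed mucosa and 10.73 to 11.09 in normal mucosa. The groups overlapped and no comparison passed the test. The 95% interval of the log2 difference was -0.49 to 0.29 for adenocarcinoma against normal mucosa and -0.65 to 0.17 for inflamed against normal mucosa.

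The 9 genes also differed in how often tumour exceeded the inflamed mucosa of its number. Ereg, Hbegf, Nrg1 and Egfr were higher in the tumour in 4 of 4 pairs, and Erbb3 in 0 of 4. Tgfa and Epgn were higher in 3 of 4, and Erbb2 and Errfi1 in 2 of 4. The share of all genes with the same sign in 4 of 4 pairs was not counted, so these counts are description only.

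**Figure D5:**
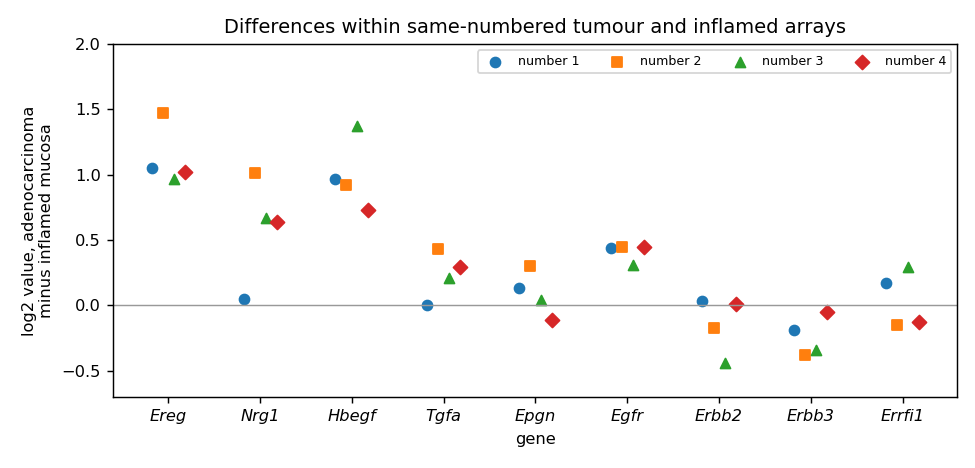
Log2 value of adenocarcinoma minus that of the inflamed mucosa of the same number on the vertical axis, for each gene on the horizontal axis, with 1 symbol per number. All 4 symbols lie above 0 for Ereg, Nrg1, Hbegf and Egfr, and those of Erbb3 lie below 0.

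The stretches upstream of Egfr and Erbb2 are shown because these receptors moved in opposite directions in the tumours. Promoter sequences were available for 5 of the 9 genes from RefSeq, assembly GRCm38.p6, and the 250 bases before the annotated start were searched on both strands for the GC box (GGGCGG), the AP-1 site (TGANTCA), the CCAAT box (CCAAT) and the TATA box (TATAAA). The Egfr stretch lies at chr11:16751953-16752202 on the plus strand and the Erbb2 stretch at chr11:98412234-98412483 on the plus strand, with motif matches in capitals.
Egfr: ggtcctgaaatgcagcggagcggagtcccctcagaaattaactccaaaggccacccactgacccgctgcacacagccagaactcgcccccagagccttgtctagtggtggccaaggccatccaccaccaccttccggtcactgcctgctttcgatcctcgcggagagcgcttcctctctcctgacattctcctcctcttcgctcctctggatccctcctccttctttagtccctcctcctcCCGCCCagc
Erbb2: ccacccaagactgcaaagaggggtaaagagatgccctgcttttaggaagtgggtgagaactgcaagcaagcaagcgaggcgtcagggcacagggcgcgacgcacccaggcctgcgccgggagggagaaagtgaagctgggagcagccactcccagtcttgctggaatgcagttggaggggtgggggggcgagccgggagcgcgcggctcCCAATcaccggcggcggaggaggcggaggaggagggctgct
The Egfr stretch held 1 GC box, read on the reverse strand, and the Erbb2 stretch held 1 CCAAT box. Of 32851 promoters, 32.7% held a GC box, 33.8% a CCAAT box, 6.75% an AP-1 site and 12.4% a TATA box in the same 250 bases. Neither stretch held an AP-1 site or a TATA box by these letters. The arrays do not measure binding at either stretch.

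Of 6 further ligands and receptors of the family, 1 was called in adenocarcinoma against normal mucosa and 0 in the other comparisons. Of all genes 35.8% were called in that comparison, 26.7% in inflamed against normal mucosa and 7.12% in adenocarcinoma against inflamed mucosa. Btc, which encodes the Egfr and Erbb4 ligand betacellulin, was the called gene, with 7.89 ± 0.33 in adenocarcinoma (SD, n = 5) and 7.30 ± 0.30 in normal mucosa (SD, n = 4), a log2 difference of 0.59 ± 0.21 (SE; adjusted p = 0.0447) that was lost under 14 of 27 alternatives. Egf itself averaged 6.12 in adenocarcinoma, 6.11 in inflamed mucosa and 6.34 in normal mucosa, and Nrg2 6.60, 6.70 and 6.69 in the same order, with no call. Nrg3 and the receptor Erbb4 lay at or below 5.57 on all 13 arrays, and Nrg4 did so on all but 1 inflamed array.

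Of 12 genes for shedding and trafficking of ligands, 4 were called higher and 1 lower in adenocarcinoma against normal mucosa, with a median log2 difference of 0.30; of all genes 35.8% were called, 16.4% higher and 19.4% lower. The 4 were the membrane proteases Adam19 (1.15, adjusted p = 0.00203), Adam9 (0.36, adjusted p = 0.025) and Bace1 (0.75, adjusted p = 0.00569), which cleaves neuregulin 1, and Rhbdf2 (0.43, adjusted p = 0.0265), a partner of the sheddase Adam17. Rhbdl2, a rhomboid protease, was lower (-0.61, adjusted p = 0.0257). The calls of Adam9 and Rhbdf2 were each lost under 5 of 27 alternatives and that of Rhbdl2 under 7. Adam19 and Bace1 were also the 2 higher genes in inflamed against normal mucosa, Adam19 by 1.22 and Bace1 by 0.90, and Rhbdl2 was the 1 lower gene (-0.64), a call lost under 8 of 27 alternatives, where 26.7% of all genes were called. Rhbdf2 was the 1 gene of this list called between adenocarcinoma and inflamed mucosa (0.54, adjusted p = 0.03), where 7.12% of all genes were called. It lost that call under 6 of 28 alternatives.

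Of 22 adaptors and kinases of the Ras-ERK and PI3K cascades, 17 were measured. In adenocarcinoma against normal mucosa 4 were higher and 3 lower, with a median log2 difference of 0.01, a count near the 35.8% of all genes that were called. Akt1, a kinase of the PI3K cascade, was 1.68-fold higher (0.75 ± 0.08, adjusted p = 1.63e-05), and its values did not overlap between any of the 3 groups. Ptpn11, a phosphatase that relays receptor signals, was higher by 0.38 (adjusted p = 0.00577) and the transcription factor Stat3 by 0.32 (adjusted p = 0.0073). The exchange factor Sos2 was lower (-0.44, adjusted p = 0.00471), as was Map2k1, the kinase that activates ERK (-0.50, adjusted p = 0.0124). Inflamed against normal mucosa gave 2 higher and 1 lower, where 26.7% of all genes were called. In adenocarcinoma against inflamed mucosa 2 were higher and 0 lower, where 7.12% of all genes were called.

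Of 20 inhibitors of the receptors and of ERK signalling, 4 were higher and 3 lower in adenocarcinoma against normal mucosa, with a median log2 difference of 0.19, again near the 35.8% of all genes called. Spry4 and Spred1, which restrain Ras-ERK signalling, were 3.35-fold (adjusted p = 7.12e-05) and 2.02-fold higher (adjusted p = 0.000279), and the ERK phosphatase Dusp4 was 1.95-fold higher (adjusted p = 0.0128). The ubiquitin ligases Cblc (-0.65, adjusted p = 0.00145) and Cbl (-0.44, adjusted p = 0.00784), which mark Egfr for degradation, were lower. In inflamed against normal mucosa 3 were higher and 3 lower, among them Spry4 (1.15), Spred1 (0.94), Cblc (-0.76) and Cbl (-0.36), where 26.7% of all genes were called. The Cbl call was lost under 10 of 27 alternatives, and its log2 difference was -0.06 after the epithelial subtraction. Between adenocarcinoma and inflamed mucosa 1 was higher and 0 were lower, where 2.91% of all genes were higher and 4.21% lower.

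Of 20 transcripts inducible by growth factors, 9 were higher and 5 lower in adenocarcinoma against normal mucosa, with a median log2 difference of 0.35, where 16.4% of all genes were called higher and 19.4% lower. Ptgs2, the inducible cyclooxygenase, was 17.5-fold higher (4.13 ± 0.30, adjusted p = 3.75e-07). Also among the higher genes, and named for their small adjusted p, were Etv5 (1.02, adjusted p = 7.3e-06), Ier3 (1.77, adjusted p = 5.06e-05), Phlda1 (1.90, adjusted p = 7.45e-05) and Myc (1.52, adjusted p = 0.000324), of which Etv5 and Myc encode transcription factors. The 5 lower genes, named after their values were seen, were Fos (-1.13), Jun (-0.81), Junb (-0.47), Atf3 (-1.36) and Maff (-0.57). Fosl1 was among the higher genes (0.99), and Fosb, Egr1, Egr2, Egr3, Ier2 and Klf6 were not called. The Maff call was lost under 9 of 27 alternatives. In inflamed against normal mucosa 3 were higher and 6 lower, with a median of -0.14, where 13.7% of all genes were higher and 13% lower, and the same 5 genes were among the lower ones. Between adenocarcinoma and inflamed mucosa, where 2.91% of all genes were higher and 4.21% lower, 5 were higher, with Ptgs2 (2.16, adjusted p = 0.000781), Ier3 (1.65, adjusted p = 0.000674) and Phlda1 (1.23, adjusted p = 0.00907) among them, and Etv5 was the 1 lower gene (-0.41, adjusted p = 0.0308). The Etv5 call was lost under 9 of 28 alternatives, among them leaving out any 1 of the 4 inflamed arrays.

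The split of calls over all genes depended on how arrays were scaled. In adenocarcinoma against normal mucosa 45.8% of the called genes were higher as deposited, against 22.4% when arrays were centred on the median of the tested genes and 67.7% after the epithelial subtraction, both chosen after seeing the data. The same shares were 51.3%, 16.5% and 92.8% for inflamed against normal mucosa, and in adenocarcinoma against inflamed mucosa 40.9%, 51.2% and 8.02%. Centring on the median of the tested genes moved the median log2 difference of all genes to -0.24 in adenocarcinoma against normal mucosa, against -0.10 as deposited. Under these scalings Ereg, Nrg1 and Egfr stayed called higher, and Erbb2 and Erbb3 lower, in adenocarcinoma against normal mucosa.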

How the data were processed

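The authors' deposited log2 values are RMA expression values per transcript cluster, made with Affymetrix Expression Console 1.1 after GeneChip Command Console 2.0, per the design text. Partek is named in the submitters' processing notes with no stated use. RMA subtracts background and equalises array distributions, and it compresses differences of dim genes. Which genome build the array annotation used was not given in the sources used here. Of 35556 clusters, 21789 name 1 gene (2016 annotation), 1621 several and 12146 were not listed; Entrez identifiers of 21698 matched RefSeq (assembly GRCm38.p6). Each of 19938 genes was represented by its brightest cluster by mean, and 999 had more than 1.

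One limma 3.58.1 model (R 4.3.3; lmFit, eBayes) of the 3 groups on all 13 arrays, with no block or covariate and no filter, gave differences, 95% intervals and adjusted p; it was tested on simulated data with 200 changed genes. Same-numbered tumours and inflamed mucosae share sex and age labels, and these 4 were taken as pairs in alternatives. The correlations of their deviations from the group mean were 0.319, 0.198, 0.199 and 0.387. Differently numbered arrays reached 0.185 between tumour and inflamed mucosa and 0.283 between tumour and normal mucosa. Values of 0.198 and 0.199 therefore do not mark a pair by themselves. Same-numbered normal arrays (-0.126 to 0.0413) were not taken as pairs. Nothing says that same-numbered arrays came from 1 mouse. The main model treated the 13 arrays as independent, and its p-values rest on the spread between these samples.

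The genes and lists were chosen with earlier results of these data known. Named genes are the listed genes, all 6 other ligands and receptors, and the 5 genes of each other list with the smallest adjusted p in adenocarcinoma against normal mucosa. Also named are the 3 most correlated genes, predicted genes left out, of the ligand and of the receptor with the smallest adjusted p in that comparison. Alternatives were replicate blocks, sex or age terms, scaling, a dim-gene filter, cluster choice, variance model, array weights, and leaving out each array. Erbb2 also has a cluster shared with another gene, which was not used. Figures used matplotlib 3.10.9.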

Additional observations from a re-analysis of the deposited data

Results flagged for a closer look

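An array stood apart from the rest of its group in 5 of 27 combinations of gene and group, by Dixon's ratio of the gap to the nearest other array over the range of the group; chance flags about 1 in 20 groups. Hbegf in inflamed mucosa 3 was low, at 7.43 where the nearest other array had 8.48 (ratio 0.894), and the call in inflamed against normal mucosa was lost without it. Tgfa in inflamed mucosa 1 was high, at 8.53 where the nearest had 8.18 (ratio 0.878). Egfr in inflamed mucosa 2 was low, at 9.52 where the nearest had 9.64 (ratio 0.908), within a group whose SD was 0.06. Ereg in normal mucosa 6 was high, at 5.72 where the nearest had 5.38 (ratio 0.845), close to the 5.57 of absent transcripts. Erbb3 in adenocarcinoma 3 was high, at 11.18 where the nearest had 10.77 (ratio 0.785).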

How the results depend on the processing

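The 5 calls in adenocarcinoma against normal mucosa were kept under all 27 alternatives, with 5 or 6 genes called. Calls over all genes ran from 5344 to 11103 there. In inflamed against normal mucosa 4 to 6 were called, while calls over all genes ran from 3524 to 11385. Calls over all genes in adenocarcinoma against inflamed mucosa ran from 775 to 4176, so counts of the 9 genes did not move alone. In that comparison 1 of the 9 was called in the main fit, and 1 to 3 when 1 array was left out. That last count was 2 with the fixed replicate block, trended and robust variances, or the epithelial subtraction, 3 without the dimmest 25% of genes or with the 2 groups alone, and 4 with the random replicate block, the 4 complete pairs, array weights or arrays centred on the median of the tested genes. This centring was first run as the planned median centring, then replaced by medians over all clusters after its output was seen, and is kept as an added alternative; under it Tgfa was also called in adenocarcinoma against normal mucosa (-0.37, adjusted p = 0.0156). With the fixed block Hbegf was called there (0.53, adjusted p = 0.0332) and not in inflamed against normal mucosa (-0.54, adjusted p = 0.0546); the blocks changed no other call of the 9 genes in the comparisons with normal mucosa. Among other named genes, the fixed block ended the calls of Maff in adenocarcinoma and Ptpn11 in inflamed mucosa, and called Map2k1 and Phlda1 in inflamed mucosa, each against normal mucosa. In adenocarcinoma against inflamed mucosa the fixed block ended the calls of Junb and Bmp7 and called Spry4.

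Of the 9 genes, signs changed for Epgn, Errfi1 and Erbb2 alone, none of them called there. Epgn in inflamed against normal mucosa, 0.00 as first fitted, was 0.065 with the fixed block, 0.007 with the random block, 0.029 with sex, 0.011 with age, 0.134 with cyclic loess, 0.083 with array weights, 0.292 after the epithelial subtraction, and -0.113 to 0.091 with 1 array left out. In adenocarcinoma it was -0.023 against normal mucosa under the added centring, 0.00 to 0.194 with 1 array left out, and -0.071 against inflamed mucosa after the epithelial subtraction. Errfi1 in adenocarcinoma against normal mucosa was 0.025 with the fixed block, 0.006 after the epithelial subtraction and -0.193 to 0.00 with 1 array left out; in inflamed against normal mucosa it was 0.052 after the subtraction. Errfi1 in adenocarcinoma against inflamed mucosa was -0.013 with array weights, -0.046 after the subtraction and -0.05 to 0.255 with 1 array left out, and Erbb2 there -0.287 to 0.019.

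Over all genes, 7133 calls in adenocarcinoma against normal mucosa became 11103 under the added centring, and 5322 in inflamed against normal mucosa became 11385, or 3524 without inflamed mucosa 2. The 1420 calls in adenocarcinoma against inflamed mucosa became 2279 with the random replicate block, 2296 with array weights, 4176 after the epithelial subtraction, and 775 or 857 without inflamed mucosa 2 or 4. The causes were not tested. No scan date or background measure per probe was used here, and the number of arrays limits the precision.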
